A study of Saccharomyces cerevisiae with 12 samples.

Results

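The genes described here encode the cytosolic Hsp90 and Hsp70 chaperones of budding yeast and 4 of their partners. They were chosen by gene name, with earlier results of these data known, and number 10 of the 6660 features in the deposited table. HSP82 and HSC82 encode Hsp90, SSA1, SSA2, SSA3 and SSA4 encode the Ssa family of Hsp70, and YDJ1, STI1, AHA1 and HSP104 encode partners. Messenger RNA was measured in 12 libraries of diploid yeast of the BY4743 laboratory background. The groups were a strain with ATG41 deleted (atg41), a strain with ATG1 deleted (atg1) and the wild type (WT), with 4 libraries each. All 3 strains were zinc-deficient, having been moved from zinc-replete into zinc-limiting medium, where they stayed 8 h at 30 °C, so no group with ample zinc enters the comparisons. The product of ATG1 is a kinase at the start of autophagy, in which cell contents are carried to the vacuole and broken down, and ATG41, also named ICY2, encodes a further protein needed for full autophagic activity.

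Hsp70 binds short hydrophobic stretches of unfolded proteins in a cycle driven by ATP. J-domain proteins such as Ydj1 deliver clients and start ATP hydrolysis, and nucleotide exchange factors end the cycle. Hsp90 takes over partly folded clients, among them kinases and receptors, from Hsp70 through the adaptor Sti1, and Aha1 stimulates its ATPase. In yeast, transcription of these genes is driven by the heat shock factor Hsf1 through heat shock elements, repeats of the unit GAA in alternating orientation, and for some of them also by Msn2 and Msn4 through the stress response element.

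Libraries held 9623157 to 11247182 expected counts. ATG1 had 0 counts in all 4 atg1 libraries, and ATG41 had 1, 0, 0 and 0 counts in the atg41 libraries, while both genes were counted in every WT library (at least 988 and 7145 counts). The first principal component of log2 CPM, with 65.8% of the variance, separated atg41 from atg1 and WT. Replicate 1 of atg1 was unlike its group. Comparing counts with the other atg1 libraries gave chi-square values of 33.1 to 55.4 per gene, where all other replicate pairs gave 3.43 to 9.13. The main fits, sums and ratios of the 10 genes that describe atg1 or compare with it are followed by their value without it. In atg41 against WT this library enters through the spread shared by all 12 libraries. Without it the log2 fold changes of the 10 genes there kept their values, and their adjusted p was lower, as for SSA2 (edgeR, 3.01e-06 with it and 9.71e-12 without). The call counts and shares over all genes include it unless stated. Whether replicate libraries came from separate cultures is not stated, and p-values cover only the spread between samples, part of which may be technical. Diploid cells repress the genes specific to the haploid mating types, and the summed CPM of the a-specific genes, 4 of 6 of which passed the filter on low counts, was 51.4 to 58.5 in atg41, 63.96 to 91.2 in atg1 (81.4 to 91.2 without replicate 1) and 87.2 to 89.5 in WT. The 5 α-specific genes summed to 108 to 116 CPM in atg41, 90.6 to 103 in atg1 and 90.5 to 98.8 in WT. In atg41 against WT, 1 of the 4 a-specific genes rose and 3 fell, and of the α-specific genes 1 rose and 2 fell (0 to 2 in each direction under the alternatives), and their part in the results below was not tested. Of 5 transcripts that report on zinc, ADH4 rose and ZRT1 fell in atg41 against WT and 3 did not pass (up to 3 fell under the alternatives), and none of the 5 passed in atg1 against WT.

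The promoters of 5 of the genes are shown because they differ in motif content and span the changes seen: STI1 (the largest rise in atg41 among the 10), HSC82 and SSA2 (abundant genes that rose), SSA4 (which fell) and HSP104 (which did not pass the test against WT). Each runs 5′ to 3′ on the gene's strand from 250 bases before the gene start to 50 bases after it, from the R64 genome with RefSeq gene starts. Capitals mark the units of each heat shock element pair (GAANNTTC or TTCNNGAA) and each stress response element (AGGGG or CCCCT).
STI1, chrXV:380803-381102, plus strand: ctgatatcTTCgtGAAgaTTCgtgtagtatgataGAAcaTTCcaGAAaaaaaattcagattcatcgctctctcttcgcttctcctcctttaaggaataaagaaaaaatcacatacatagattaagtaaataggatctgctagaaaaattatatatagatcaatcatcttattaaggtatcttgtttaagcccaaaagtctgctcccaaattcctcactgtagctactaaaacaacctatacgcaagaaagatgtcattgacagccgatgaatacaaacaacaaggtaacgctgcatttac
HSC82, chrXIII:632105-632404, plus strand: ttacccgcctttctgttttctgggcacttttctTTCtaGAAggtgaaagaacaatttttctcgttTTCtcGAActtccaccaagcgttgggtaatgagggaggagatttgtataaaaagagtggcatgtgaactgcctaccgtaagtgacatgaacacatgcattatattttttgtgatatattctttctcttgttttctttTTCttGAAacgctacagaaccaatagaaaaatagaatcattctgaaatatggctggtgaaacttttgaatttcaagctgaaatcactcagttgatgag
SSA2, chrXII:97436-97735, minus strand: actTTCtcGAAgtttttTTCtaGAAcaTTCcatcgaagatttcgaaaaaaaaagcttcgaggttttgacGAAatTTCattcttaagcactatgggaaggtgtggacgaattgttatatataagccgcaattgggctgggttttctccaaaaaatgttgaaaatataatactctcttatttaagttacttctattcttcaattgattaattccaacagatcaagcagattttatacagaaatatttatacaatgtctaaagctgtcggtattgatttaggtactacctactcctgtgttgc
SSA4, chrV:364339-364638, plus strand: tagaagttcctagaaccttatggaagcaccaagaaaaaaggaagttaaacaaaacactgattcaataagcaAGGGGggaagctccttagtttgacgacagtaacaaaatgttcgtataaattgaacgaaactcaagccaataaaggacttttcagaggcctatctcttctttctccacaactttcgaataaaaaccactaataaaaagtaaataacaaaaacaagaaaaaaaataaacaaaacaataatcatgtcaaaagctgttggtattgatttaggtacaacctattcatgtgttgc
HSP104, chrXII:88373-88672, plus strand: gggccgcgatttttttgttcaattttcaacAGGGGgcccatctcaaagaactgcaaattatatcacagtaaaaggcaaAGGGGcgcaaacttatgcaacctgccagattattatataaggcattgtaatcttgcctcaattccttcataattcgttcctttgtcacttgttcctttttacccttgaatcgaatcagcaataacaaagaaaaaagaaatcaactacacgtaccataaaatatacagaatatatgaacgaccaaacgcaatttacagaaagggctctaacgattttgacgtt

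In these windows 6 of the 10 genes held at least 1 heat shock element pair, searched on both strands, against 22.6% of 6007 yeast promoters of the same length. These were HSP82, HSC82, SSA1, SSA2, STI1 and AHA1. A run of 3 alternating units (GAANNTTCNNGAA or TTCNNGAANNTTC, each of which holds a pair and overlaps the next) was found in 2 of the 10, STI1 and SSA2, against 0.782% of all promoters. STI1 had 2 such runs, starting 242 and 216 bases before the gene, and SSA2 had 1, starting 233 bases before it. A stress response element was found in 4 of the 10, HSP82, SSA1, SSA4 and HSP104, against 21.6% of all promoters. The windows of SSA4 and HSP104 held the stress response element without a heat shock element pair, and those of SSA3 and YDJ1 held neither. The promoters printed above were picked with the changes in atg41 against WT known, and they leave out genes that differ from their pattern. HSP82 and SSA1, with both motifs, rose by 1.10 and 0.88, and YDJ1 and SSA3, with neither, rose by 0.72 and 0.19. AHA1, with a pair only, is also left out and rose by 1.25. A link between motif and direction was not tested. A match describes letters in a window and is not a measured binding site, and no match says only that these letters were not found there.

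With ATG41 deleted, transcripts of 8 of the 10 chaperone genes were higher than in WT and 1, SSA4, was lower. Both Hsp90 genes, both abundant Hsp70 genes and 3 of the 4 partners (STI1, AHA1 and YDJ1) rose, by 0.72 to 1.25 on the log2 scale. SSA3 rose by 0.19, and HSP104 (0.14 ± 0.06) did not pass the test. Over the whole transcriptome the atg41 strain differed widely from WT, with 29.9% of the 6195 genes tested called higher and 35.9% called lower, so a call by itself does not set a chaperone gene apart. The sizes of the changes are therefore given with their place among all genes: the median log2 fold change of the 10 was 0.89, against -0.04 for all genes tested, and all 10 had passed the filter on low counts. By size of rise, HSP82, HSC82, SSA2 and SSA1 stood 222nd, 224th, 299th and 322nd of the 6195, and SSA3 and HSP104 stood 1883rd and 2124th. Because the 10 were chosen with earlier results of these data known, these values describe them and do not test whether they stand apart. In TPM, a measure scaled by transcript length, the 10 genes summed to 4950 ± 33.4 in atg41, 2698 ± 61.4 in atg1 and 2702 ± 101 in WT (SD, n = 4), or 0.495%, 0.27% and 0.27% of the transcripts. The atg1 sum was 2713 ± 65.4 TPM without replicate 1 (SD, n = 3). A share of poly-A RNA does not tell whether more cells carried a transcript or each cell carried more of it. The calls are from edgeR's quasi-likelihood test with Benjamini-Hochberg adjustment over all genes tested and a threshold of 0.05, and fold changes are log2 ± SE with the first strain named over the second. When libraries were instead scaled to equal totals, the median over all genes was -0.17 and the calls over all genes split into 1252 higher and 2816 lower, against 1855 and 2226 with the TMM factors used here. The members' calls were then 7 higher and 1 lower, and the one lost was SSA3.

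**Figure D1:**
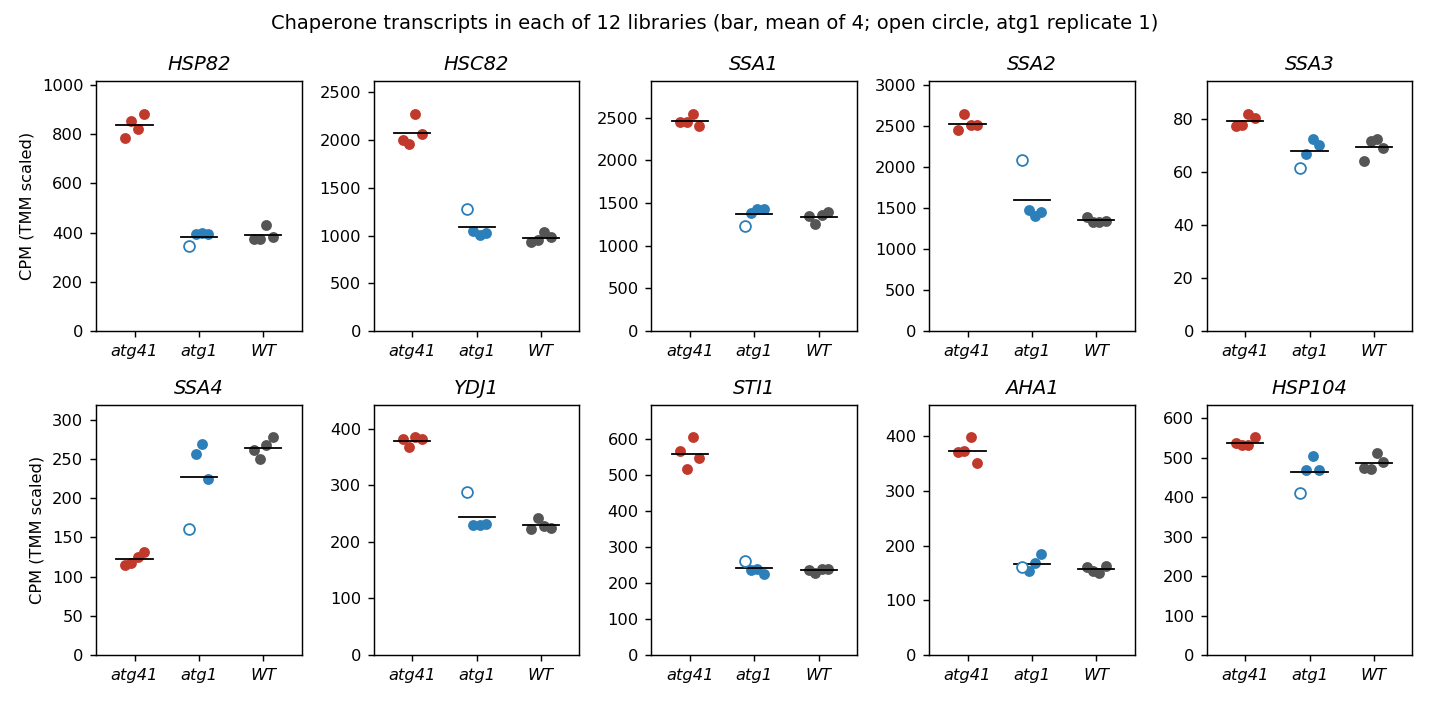
TMM-scaled CPM (each count over its library's total, with a TMM factor applied) of each of the 10 chaperone genes, one point per library, with a bar at the mean of 4 libraries and an open circle for replicate 1 of atg1. The 4 atg41 libraries lie above all 4 WT libraries in 9 panels and below them in the SSA4 panel, where atg41 spans 115 to 132 CPM and WT 250 to 278 CPM.

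Hsp90 transcripts rose through both of its genes. HSP82 (YPL240C, chromosome XVI, 96496 to 98625, minus strand), the gene more strongly induced by heat, had 786, 854, 821 and 883 CPM in atg41, 348, 393, 399 and 396 CPM in atg1, and 375, 372, 429 and 383 CPM in WT. HSC82 (YMR186W, chromosome XIII, 632355 to 634472, plus strand), the more constitutive gene, had 2000, 1962, 2276 and 2063 CPM in atg41, 1277, 1045, 1003 and 1025 CPM in atg1, and 933, 950, 1036 and 983 CPM in WT. For both genes every atg41 library was above every library of atg1 and WT, and no atg41 library overlapped the others. HSP82 rose by 1.10 ± 0.07 (edgeR adjusted p = 5.13e-09) and HSC82 by 1.09 ± 0.08 (edgeR adjusted p = 4.01e-08) in atg41 against WT. Summed as 1 feature, the pair rose by 1.09 ± 0.07, with 2912 ± 142 CPM in atg41 and 1365 ± 70.9 CPM in WT (SD, n = 4, edgeR adjusted p = 4.56e-09). The ratio of HSP82 to HSC82 counts had a geometric mean of 0.403 in atg41 and 0.400 in WT, a difference of 0.01 ± 0.07 on the log2 scale (two-sided exact permutation test, p = 0.8286, n = 4 each). HSP82 made up 28.6% ± 1.75 of Hsp90 TPM in atg41 and 28.4% ± 0.572 in WT (SD, n = 4). The 2 proteins are 97.7% identical and the coding sequences 92.4%, but only 0.689% of the 100-base windows of HSP82, the length of a read, also occur in HSC82.

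The abundant Hsp70 genes SSA1 and SSA2, which carry most of the cytosolic Hsp70 in growing cells, also rose together. SSA1 (YAL005C, chromosome I, 139503 to 141431, minus strand) had 2444, 2449, 2546 and 2402 CPM in atg41, 1231, 1385, 1433 and 1434 CPM in atg1, and 1349, 1258, 1361 and 1398 CPM in WT. SSA2 (YLL024C, chromosome XII, 95566 to 97485, minus strand) had 2455, 2653, 2512 and 2511 CPM in atg41, 2087, 1475, 1408 and 1449 CPM in atg1, and 1392, 1333, 1336 and 1340 CPM in WT. Again all atg41 libraries were the highest, and within atg1 the first library held less SSA1 and more SSA2 than the other 3. In atg41 against WT, SSA1 rose by 0.88 ± 0.06 (edgeR adjusted p = 2.66e-08) and SSA2 by 0.91 ± 0.10 (edgeR adjusted p = 3.01e-06). Their sum rose by 0.89 ± 0.06, with 4994 ± 103 CPM in atg41 and 2691 ± 70.3 CPM in WT (SD, n = 4, edgeR adjusted p = 1.53e-08). The sum is the safer value, since 838 of the 1830 100-base windows of SSA1 (45.8%) also occur in SSA2 and the authors' estimation may have split such reads between the genes. The ratio of SSA1 to SSA2 had a geometric mean of 0.972 in atg41 and 0.993 in WT, and the log2 difference was -0.03 ± 0.04 (two-sided exact permutation test, p = 0.486, n = 4 each).

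The heat-inducible Hsp70 genes SSA3 and SSA4 moved apart from each other. SSA4 (YER103W, chromosome V, 364589 to 366517, plus strand), the Ssa gene known for its strong induction by stress, had 115, 118, 125 and 132 CPM in atg41, 161, 257, 269 and 224 CPM in atg1, and 262, 250, 269 and 278 CPM in WT. All atg41 libraries were below all others, and the first atg1 library lay between atg41 and the rest. In atg41 against WT, SSA4 fell by 1.12 ± 0.13 (log2, edgeR adjusted p = 5.35e-06), which placed it 314th from the lowest of 6195 genes. SSA3 (YBL075C, chromosome II, 84499 to 86448, minus strand), which is induced as cells enter stationary phase, had 77.3, 77.7, 82.1 and 80.4 CPM in atg41, 61.8, 66.9, 72.7 and 70.4 CPM in atg1, and 64.3, 71.9, 72.6 and 69.1 CPM in WT. The atg41 and WT ranges of SSA3 lay close without overlapping, with 77.3 CPM the lowest atg41 value and 72.6 CPM the highest WT value, and SSA3 rose by 0.19 ± 0.06 (edgeR adjusted p = 0.00967). That call was lost at equal totals (0.05, adjusted p = 0.555), without WT replicate 1 (0.15, adjusted p = 0.0525) and with limma on log2(TPM + 1) (0.19, adjusted p = 0.0821). The SSA4 to SSA3 ratio had a geometric mean of 1.54 in atg41, 3.30 in atg1 (3.56 without replicate 1) and 3.81 in WT. The log2 difference was -1.31 ± 0.06 in atg41 against WT and -1.10 ± 0.13 in atg41 against atg1 (-1.21 without atg1 replicate 1). With 4 libraries in each strain, both had an exact two-sided permutation p of 0.0286, the smallest that 4 against 4 libraries allow. Adjusted over 9 tests (3 ratios in 3 comparisons) both had p = 0.129 by this exact permutation test, and no ratio passed. With 0.0286 as the smallest p, these ratios could pass that adjustment only if most of the 9 tests reached it too. The missed threshold therefore says nothing on the size of these differences.

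**Figure D2:**
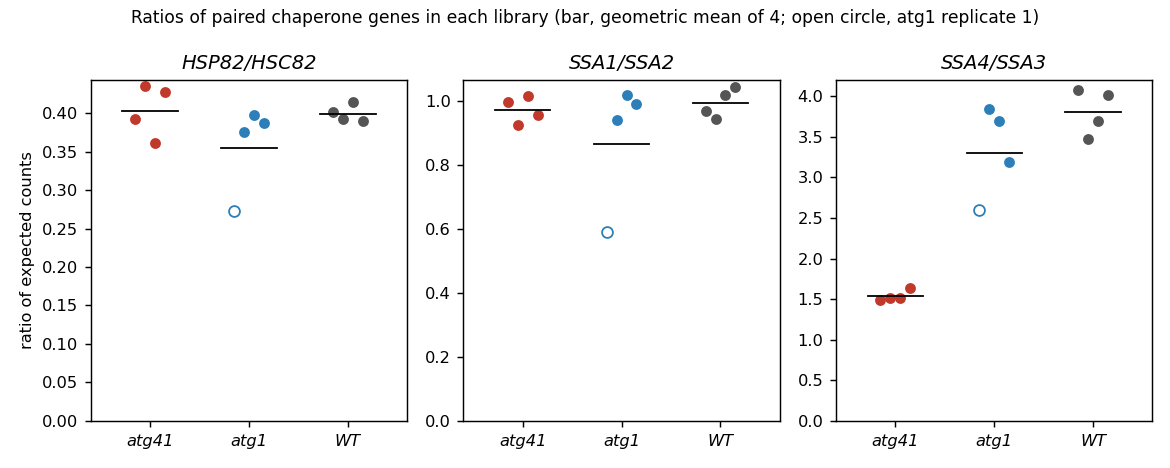
Ratio of expected counts between paired chaperone genes, one point per library, with a bar at the geometric mean of 4 libraries and an open circle for replicate 1 of atg1. The SSA4/SSA3 points lie between 1.49 and 1.63 in atg41 and between 3.48 and 4.07 in WT, while the HSP82/HSC82 and SSA1/SSA2 points of atg41 and WT overlap and replicate 1 of atg1 is the lowest point of all in both.

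The make-up of the Ssa family in TPM followed from these changes. The family summed to 2538 ± 46.4 TPM in atg41, 1496 ± 31.1 TPM in atg1 and 1479 ± 43.1 TPM in WT (SD, n = 4). Without replicate 1 the atg1 sum was 1502 ± 35.3 TPM (SD, n = 3). SSA4 held 2.35% ± 0.154 of the family in atg41, 7.01% ± 1.76 in atg1 (7.84% ± 0.718 without replicate 1) and 8.73% ± 0.218 in WT. SSA3 held 1.51% ± 0.0467 in atg41, 2.06% ± 0.237 in atg1 (2.17% ± 0.0913 without replicate 1) and 2.27% ± 0.162 in WT, so its share was smaller in atg41 although its own level was higher. SSA1 and SSA2 held the remainder, 47.3% ± 0.994 and 48.9% ± 1.04 in atg41 against 44.2% ± 0.932 and 44.8% ± 1.11 in WT. The SSA3 and SSA4 proteins are 88.9% identical to each other, and neither gene shares a 100-base window with another of the 4, so no full-length exact read of one could be assigned to another.

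**Figure D3:**
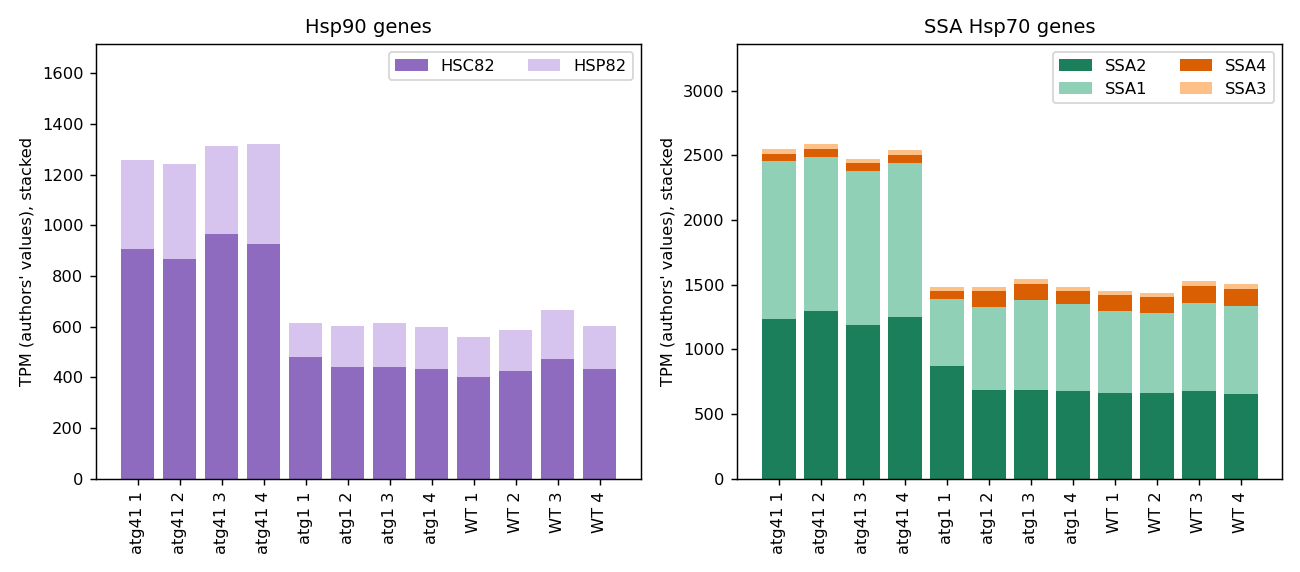
Stacked TPM of the 2 Hsp90 genes and of the 4 SSA genes in each of the 12 libraries, from the authors' TPM values. Ssa totals are 2474 to 2585 TPM in atg41, 1478 to 1543 TPM in atg1 and 1435 to 1528 TPM in WT, and the SSA4 segment is narrowest in atg41 and in replicate 1 of atg1.

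Among the partners, the Hsp90 co-chaperones STI1 and AHA1 had the largest rises of the 10. STI1 (YOR027W, chromosome XV, 381053 to 382822, plus strand), the adaptor that joins Hsp70 to Hsp90, had 567, 517, 604 and 546 CPM in atg41, 262, 235, 237 and 226 CPM in atg1, and 235, 227, 238 and 238 CPM in WT. AHA1 (YDR214W, chromosome IV, 892875 to 893927, plus strand), the activator of the Hsp90 ATPase, had 372, 373, 398 and 351 CPM in atg41, 161, 153, 168 and 184 CPM in atg1, and 161, 155, 151 and 163 CPM in WT. The lowest atg41 library of each gene was above the highest of the other strains. Both rose by 1.25 ± 0.06 in atg41 against WT (edgeR adjusted p = 5.19e-10 for STI1 and 6.39e-10 for AHA1), the 168th and 173rd largest rises of 6195 genes. YDJ1 (YNL064C, chromosome XIV, 505868 to 507097, minus strand), the main J-domain partner of cytosolic Hsp70, had 383, 369, 385 and 382 CPM in atg41, 289, 230, 229 and 231 CPM in atg1, and 223, 243, 228 and 225 CPM in WT. It rose by 0.72 ± 0.07 (edgeR adjusted p = 6.81e-07), the 466th largest rise, with replicate 1 of atg1 between the atg41 libraries and all others.

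HSP104 (YLL026W, chromosome XII, 88623 to 91349, plus strand) encodes the disaggregase that works with Hsp70 to pull proteins out of aggregates. It had 539, 532, 532 and 552 CPM in atg41, 411, 469, 505 and 468 CPM in atg1, and 474, 472, 513 and 491 CPM in WT. All 4 atg41 libraries were above all WT libraries, but the difference of 0.14 ± 0.06 did not pass (edgeR adjusted p = 0.0561). It passed with DESeq2 size factors (0.18, adjusted p = 0.0206), in the fit of only those 2 strains (0.17, adjusted p = 0.00296), without atg1 replicate 1 (0.14, adjusted p = 0.00903) and in DESeq2 (0.18, adjusted p = 0.00501). At equal totals it was at 0.01 (adjusted p = 0.939). In the authors' deposited table HSP104 was higher in atg41 than in WT at 0.17 with a false discovery rate of 0.00103, and there 9 of the 10 genes were higher and 1 lower. The share of all genes called in that table was not counted, so these counts do not set the 10 apart. Ranges of atg41 and WT did not overlap for any of the 10 genes, 9 higher and 1 lower, while 65.3% of all genes tested had such ranges, 30.1% higher and 35.2% lower.

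Deletion of ATG1 left no such change detectable in these genes. None of the 10 passed in atg1 against WT, where 3.73% of all genes tested were called, 24 (0.387%) higher and 207 (3.34%) lower, and 1 of the 10 had an unadjusted edgeR p under 0.05, as 1313 (21.2%) of all genes tested did. With atg1 replicate 1 left out, 317 genes were called, 32 higher and 285 lower, and 0 of the 10 were among them. DESeq2 and limma on log2(TPM + 1) also called 0 of the 10, as did the authors' deposited table, whose calls over all genes were not counted. With DESeq2 the calls over all genes split into 134 higher and 262 lower, and with limma into 11 and 312. After removal of the trend of counts with base composition and length they split into 32 and 108. The median of the 10 was 0.03, against -0.01 for all genes. The largest difference was that of SSA2 (0.25 ± 0.10, edgeR adjusted p = 0.186), whose atg1 libraries were all above WT. Such separate ranges were found for 13.8% of all genes, 4.7% higher and 9.09% lower. Without atg1 replicate 1, SSA2 was at 0.10 (edgeR adjusted p = 0.282), and its 3 other atg1 libraries held 1408 to 1475 CPM. SSA4 was at -0.22 ± 0.12 (edgeR adjusted p = 0.327) with that library and -0.08 (edgeR adjusted p = 0.488) without it. HSC82 was at 0.16 ± 0.08 with it and 0.07 without it, and the remaining 7 genes were between -0.07 and 0.09 with it and between -0.02 and 0.10 without it. Summed pairs were at 0.15 ± 0.06 for SSA1 with SSA2 (edgeR adjusted p = 0.190) and 0.11 ± 0.07 for HSP82 with HSC82 (edgeR adjusted p = 0.354). In a fit added after the data were seen, without atg1 replicate 1, they were at 0.09 ± 0.05 (edgeR adjusted p = 0.334) and 0.06 ± 0.06 (edgeR adjusted p = 0.613). A p that misses the threshold does not show equal levels.

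Set directly against atg1, the atg41 strain showed all 10 genes changed, 9 higher and 1 lower, where 63.9% of all genes were called, 31% higher and 33% lower. The ranges were separate for all 10, as for 56.2% of all genes (27.9% higher and 28.3% lower). Over all genes the split was 1918 higher and 2043 lower, and it was 2303 and 1536 with limma on log2(TPM + 1). This comparison shares the atg41 libraries with that against WT, so the values are set side by side and are not a repeat. STI1 was at 1.22 ± 0.06 against atg1 and 1.25 ± 0.06 against WT, HSP82 at 1.12 ± 0.07 against atg1 and 1.10 ± 0.07 against WT, and SSA4 at -0.90 ± 0.13 against atg1 and -1.12 ± 0.13 against WT. SSA2 was at 0.66 ± 0.10 against atg1. Without atg1 replicate 1 the same values against atg1 were 1.26 for STI1, 1.08 for HSP82, -1.03 for SSA4 and 0.81 for SSA2, and all 10 genes passed. HSP104 rose by 0.22 ± 0.06 against atg1 (edgeR adjusted p = 0.00751) and SSA3 by 0.22 ± 0.06 (edgeR adjusted p = 0.00396). Both also rose without atg1 replicate 1, by 0.16 (edgeR adjusted p = 0.00723) and 0.18 (edgeR adjusted p = 0.00740) in that order. Both of these calls were lost at equal totals (adjusted p = 0.0964 for HSP104 and 0.0767 for SSA3), and in the authors' deposited table HSP104 did not pass in this comparison (false discovery rate 0.0773).

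**Figure D4:**
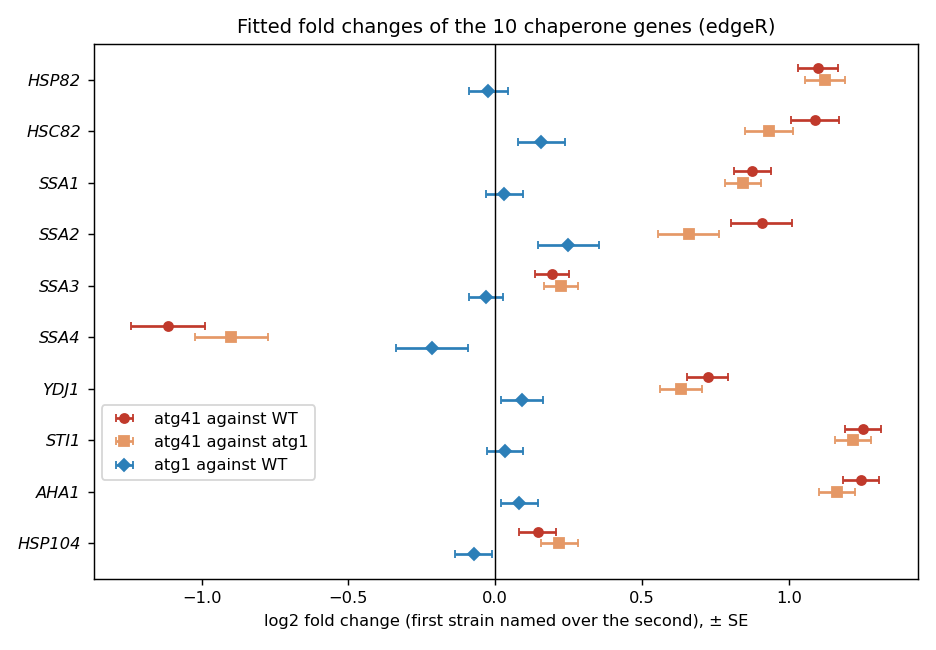
Fitted log2 fold changes of the 10 chaperone genes (horizontal axis, first strain named over the second, bars ± SE) for atg41 against WT, atg41 against atg1 and atg1 against WT. Values for atg41 lie between 0.14 and 1.25 against WT for all genes but SSA4, which is at -1.12, while the values of atg1 against WT lie between -0.22 and 0.25.

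The order of the genes by level, in TPM, was read within each strain. In atg41 it ran SSA2 (1241 ± 47.4 TPM), SSA1 (1199 ± 14.6), HSC82 (916 ± 42.3), HSP82 (367 ± 21.3), AHA1 (349 ± 11.5), YDJ1 (300 ± 9.51), STI1 (298 ± 16.1), HSP104 (183 ± 7.38), SSA4 (59.6 ± 3.73) and SSA3 (38.2 ± 0.828 TPM, SD, n = 4). In WT it ran SSA2 (662 ± 8.35 TPM), SSA1 (655 ± 31.7), HSC82 (432 ± 29.9), YDJ1 (182 ± 9.89), HSP82 (172 ± 15.4), HSP104 (166 ± 9.96), AHA1 (147 ± 3.41), SSA4 (129 ± 6.67), STI1 (125 ± 4.34) and SSA3 (33.6 ± 2.62 TPM, SD, n = 4). SSA2 and SSA1 overlapped in every strain, so their order is not resolved. HSP82 and AHA1, and YDJ1 and STI1, overlapped in atg41, and YDJ1, HSP82 and HSP104 overlapped stepwise in WT, as did SSA4 and STI1. STI1 was thus well above SSA4 in atg41 and overlapped it in WT. In atg1 the order was that of WT except that STI1 (120 ± 4.29 TPM) stood above SSA4 (105 ± 27.6 TPM, SD, n = 4), with overlapping ranges. Without replicate 1 these were 120 ± 5.24 TPM for STI1 and 118 ± 12.9 TPM for SSA4 (SD, n = 3).

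Other genes of the Hsp90 and Hsp70 machinery moved in both directions in atg41 against WT, where 29.9% of all genes tested were called higher and 35.9% lower. Of the 12 Hsp90 co-chaperones 5 rose and 2 fell, or 3 and 2 of the 10 besides STI1 and AHA1, with a median of 0.05 for those 10. The number that fell was 4 of the 12 at equal totals and also without atg1 replicate 1. CNS1, an essential co-chaperone that binds both Hsp70 and Hsp90, was at 28.3 ± 3.19 CPM in atg41 and 52.1 ± 4.62 CPM in WT (SD, n = 4) and fell by 0.88 ± 0.10 (edgeR adjusted p = 3.22e-06). CPR7, a cyclophilin of Hsp90 complexes, fell by 0.40 ± 0.11 (edgeR adjusted p = 0.00406), while the related cyclophilin CPR6 rose by 0.70 ± 0.05 (edgeR adjusted p = 8.25e-09). The other two rises, named after their values were seen, were HCH1, a relative of AHA1 (0.53 ± 0.05), and CDC37, which brings kinases to Hsp90 (0.33 ± 0.06). Of 11 J-domain proteins that work with cytosolic Hsp70, 5 rose and 6 fell, with a median of -0.24. SWA2, which acts in clathrin uncoating, rose by 0.65 ± 0.06 and APJ1 by 0.51 ± 0.06, whereas JJJ3, which acts in diphthamide synthesis, fell by 0.96 ± 0.17 and JJJ1, a ribosome assembly factor, by 0.92 ± 0.15. Of the 4 nucleotide exchange factors, the Hsp110 genes SSE1 (0.64 ± 0.07) and SSE2 (0.64 ± 0.07) and FES1 (0.19 ± 0.05) rose and the membrane-bound SNL1 fell by 1.11 ± 0.05. SSE1 was at 906 ± 40.4 CPM in atg41 and 581 ± 12.8 CPM in WT (SD, n = 4).

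Chaperones with other tasks were read from further lists in the same comparison, beside the same shares over all genes (29.9% higher and 35.9% lower). Of 7 genes of ribosome-bound chaperones 1 rose, ZUO1 (0.31 ± 0.08), and 1 fell, BTT1 (-0.66 ± 0.13). Not all of the 7 belong to an Hsp70 system, and BTT1 does not. The near-identical Hsp70 pair SSB1 (-0.29 ± 0.17) and SSB2 (-0.00 ± 0.15) did not pass. Without atg1 replicate 1, SSB1 was called lower (-0.29 ± 0.06, edgeR adjusted p = 0.000225) and SSB2 was not (edgeR adjusted p = 0.958). The number that fell was 3 at equal totals and 2 without atg1 replicate 1 or with only those 2 strains in the fit. Of 9 genes of aggregate handling and small heat shock proteins 5 rose and 3 fell. The 3 were HSP26, HSP31 and HSP32, and only 1 was called lower without atg41 replicate 2 or 3 or WT replicate 2, 3 or 4, after the trend with base composition and length was removed, and in limma on log2(TPM + 1). The number that rose was 3 at equal totals. HSP26, a small heat shock protein, fell by 0.82 ± 0.26 (edgeR adjusted p = 0.0154), with 434 ± 80.7 CPM in atg41 and 768 ± 81.9 CPM in WT (SD, n = 4), whereas CUR1, a sorting factor for misfolded proteins, rose by 0.51 ± 0.08. Of 14 genes of the TRiC chaperonin and prefoldin 7 rose and 4 fell. The 7 were all TRiC subunits, with the eighth, CCT7, at 0.09 ± 0.06, and the 4 were all prefoldin subunits, led by GIM4 (-1.69 ± 0.13) and YKE2 (-0.67 ± 0.13). The largest of the TRiC rises was 0.35. At equal totals 5 of the 14 rose and 5 fell, and 6 rose under several other alternatives, among them the replicate block. With the trend with base composition and length removed, the prefoldin genes PFD1 (adjusted p = 0.164) and GIM3 (adjusted p = 0.434) lost their calls.

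The 10 genes were also set beside chaperones of the 2 organelles, in atg41 against WT (29.9% of all genes tested higher and 35.9% lower). Of 16 endoplasmic reticulum chaperone genes 14 rose and 1 fell, with a median of 0.95, close to the 0.89 of the cytosolic 10. The fall was that of EPS1 (-0.15 ± 0.06), which lost its call in DESeq2 (adjusted p = 0.105), limma on log2(TPM + 1) (adjusted p = 0.0928) and 6 other alternatives. EUG1 (1.59 ± 0.06), a disulfide isomerase, KAR2 (1.51 ± 0.06), the Hsp70 of that compartment, and ERO1 (1.46 ± 0.08), its thiol oxidase, were the largest. Of 11 mitochondrial matrix chaperone genes 4 rose and 3 fell, with a median of -0.00, a share in each direction near that of all genes tested. HSP60, the chaperonin of the matrix, rose by 1.31 ± 0.07 and SSC1, its main Hsp70, by 0.96 ± 0.09, while SSQ1, an Hsp70 for iron-sulfur cluster assembly, fell by 0.54 ± 0.08. No test of a difference between these lists was made.

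**Figure D5:**
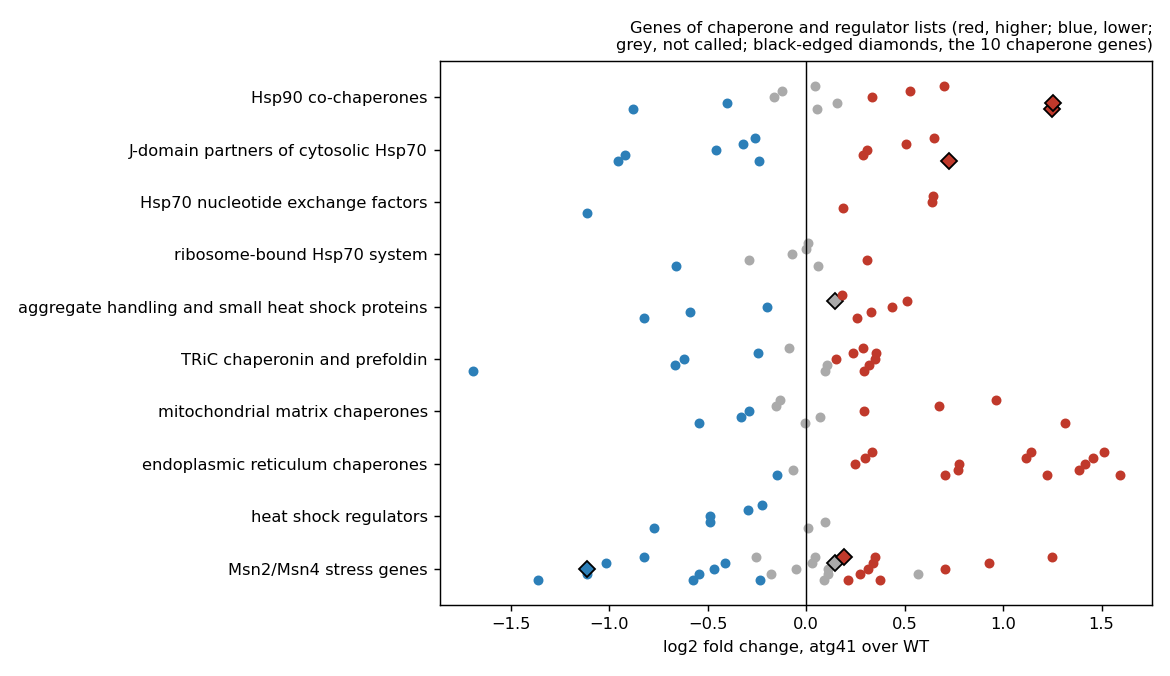
Log2 fold change of atg41 over WT (horizontal axis) for each gene tested in 10 lists of chaperones and regulators (rows), coloured by whether it was called higher, lower or neither by edgeR, with black-edged diamonds for those of the 10 chaperone genes that a list holds. The endoplasmic reticulum row reaches 1.59 with 14 of 16 genes called higher, while most other rows hold calls in both directions and the regulator row holds none called higher.

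Lists of genes tied to the regulators were counted in the same way, with no test of a difference between them. They too were chosen with earlier results of these data known, so the counts are a description. Of all genes tested, 29.9% were called higher and 35.9% lower in atg41 against WT. Of 25 chaperone genes linked to Hsf1, 20 rose and 2 fell in that comparison. Besides the 10 chaperone genes, 12 of the other 15 rose and 1 fell, with a median of 0.47. Of 30 stress genes linked to Msn2 and Msn4, 10 rose and 10 fell, with a median of 0.07, a share in each direction near that of all genes tested. At equal totals 5 of the 30 rose and 11 fell. HXK1, a hexokinase, rose by 1.25 ± 0.07 and YGP1, a secreted glycoprotein, fell by 1.36 ± 0.12. SPI1 fell by 1.12 ± 0.08 and TFS1 by 1.02 ± 0.10, and SSA3, SSA4 and HSP104 are also in that list. The transcript of HSF1 itself had 223, 195, 218 and 215 CPM in atg41, 159, 184, 188 and 177 CPM in atg1, and 202, 200, 201 and 195 CPM in WT. The atg41 and WT ranges overlapped, and HSF1 was at 0.09 ± 0.06 (edgeR adjusted p = 0.171) against WT but rose by 0.26 ± 0.06 (edgeR adjusted p = 0.00119) against atg1, and by 0.22 (edgeR adjusted p = 0.00100) without atg1 replicate 1. MSN4 had 47.8, 47.7, 45.6 and 48.5 CPM in atg41 and 79.4, 80.5, 89.6 and 75.4 CPM in WT, and fell by 0.78 ± 0.07 (edgeR adjusted p = 2.57e-07). MSN2 fell by 0.49 ± 0.04 (edgeR adjusted p = 3.28e-07) and YAK1, a kinase that acts on stress transcription factors, by 0.49 ± 0.07 (edgeR adjusted p = 1.68e-05), so that 0 of the 7 regulators rose and 5 fell, and 1 rose with only those 2 strains in the fit. These are transcript levels, and the activity of the factors was not measured.

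In atg1 against WT, 4 genes of these lists passed, all of them lower, where 0.387% of all genes tested were called higher and 3.34% lower. CNS1 fell by 0.40 ± 0.10 (edgeR adjusted p = 0.0388), JJJ1 by 0.61 ± 0.15 (edgeR adjusted p = 0.0378), CAJ1, a J-domain protein, by 0.32 ± 0.07 (edgeR adjusted p = 0.0279), and BTN2, a sorting factor for misfolded proteins, by 0.58 ± 0.11 (edgeR adjusted p = 0.0123). All 4 lost the call without atg1 replicate 2 (adjusted p 0.119, 0.114, 0.0859 and 0.0517 in that order), and BTN2 under no other alternative. CNS1, JJJ1 and CAJ1 also lost theirs with only those 2 strains in the fit (adjusted p 0.0787, 0.0567 and 0.0620). The same 3 lost theirs without atg1 replicate 4, WT replicate 2 or WT replicate 3. CNS1 and JJJ1 lost theirs under further alternatives, among them the replicate block (adjusted p 0.0509 and 0.0882) and correction for base composition and length (0.0686 and 0.0615). Without atg1 replicate 1, JJJ1 lost its call (edgeR adjusted p = 0.0700) and the other three kept theirs. DESeq2 also called these 4 lower, and called HSP60 (0.27, adjusted p = 0.00598) and MBF1, a transcriptional coactivator (0.20, adjusted p = 0.0394), higher. Limma on log2(TPM + 1) also called the 4 lower, with SBA1, the p23 co-chaperone of Hsp90 (-0.27, adjusted p = 0.0382), and JAC1, a mitochondrial J-domain protein (-0.34, adjusted p = 0.0162). The other lists had 0 genes called by edgeR, except that the list linked to Hsf1 also holds BTN2. At an unadjusted p under 0.05 stood 0 of 4 nucleotide exchange factors, 4 of 7 ribosome-bound chaperones, 4 of 14 genes of TRiC and prefoldin, 2 of 7 regulators, 2 of 30 Msn2 and Msn4 targets, 4 of 11 mitochondrial chaperones and 2 of 16 endoplasmic reticulum chaperones, against 21.2% of all genes tested. In these lists DESeq2 called HSP60 and no other gene, and limma on log2(TPM + 1) called JAC1 and no other gene.

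Genes whose log2 CPM followed that of STI1 or SSA4 most closely were looked up among 5540 genes, as a description over 12 libraries that share 1 split into strains. For STI1 they were HSU1 (Pearson r = 0.996), PRD1 (0.996), CPR6 (0.995), EMI2 (0.994) and MET6 (0.994), which were at 1.20, 0.92, 0.70, 0.94 and 1.66 in atg41 against WT. CPR6 had 287, 279, 295 and 272 CPM in atg41, 174, 170, 177 and 165 CPM in atg1, and 176, 174, 175 and 172 CPM in WT. For SSA4 they were RPH1 (0.983), GLN3 (0.982), YAK1 (0.980), YLR126C (0.979) and COI1 (0.979), which were at -1.25, -0.54, -0.49, -0.68 and -0.98. Of all genes tested 65.9% were called in atg41 against WT. Without atg1 replicate 1 the r of these 10 pairs lay between 0.980 and 0.997 over 11 libraries.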

How the data were processed

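Per the labels, poly-A RNA from hot-phenol extracts was made into TruSeq libraries, a kit that does not mark strand, and sequenced as single 100-base reads. None of the 10 genes overlaps another RefSeq gene. The main deposited table gives the authors' expected counts for each gene (the unit was read from the values), of which 18.4% were not whole and were rounded here. The authors' deposited TPM values are per library. The authors' deposited comparison tables hold log2 fold changes and false discovery rates (adjusted p-values), with signs turned where needed, as read from the deleted genes, to put the first strain named on top. BWA, STAR, RSEM and edgeR are named in the submitters' processing notes, with no role. Their versions, the build and the annotation were not given in the sources. The 12 other columns of per-sample values could be tied to no listed sample and were left out.

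Counts were scaled with TMM and tested in edgeR 4.0.16 (R 4.3.3, robust quasi-likelihood F test, two-sided, strain as the only factor, 12 libraries in 1 fit) on 6195 genes kept by filterByExpr (minimum count 10, minimum total 15), with Benjamini-Hochberg adjustment and a threshold of 0.05. The SE of a log2 fold change is its size over the square root of F. The fit was run on simulated counts with 1 common spread for all genes, few changed genes and no library unlike its group. Those settings are simpler than these data. CPM divide each count by its library's total, with the TMM factor applied. Alternatives used DESeq2 1.42.0, limma 3.58.1 on log2(TPM + 1), other scalings and filters, 2 strains only, each library left out, a replicate block, a trend with base composition and length removed, and paralogs summed (also without replicate 1 of atg1, chosen after seeing the data). Count ratios used a pseudocount of 0.5 and exact permutation tests. Coordinates, gene starts, promoter windows and paralog identities come from the R64 assembly with RefSeq annotation, to which the table's gene identifiers were matched by locus tag. The 100-base windows are of coding sequence.

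The members and the gene lists were chosen with earlier results of these data known. Genes named are the 10, ATG1, ATG41, HSF1, MSN2 and MSN4, and per list up to 3 called genes with the largest absolute log2 fold change in a comparison plus up to 2 called the other way, with the 5 genes most like STI1 and SSA4 among those whose log2 CPM averaged 3 or more. Others are named after their values were seen: FES1, SSB1, SSB2, CCT7, HCH1, CDC37, MBF1, SBA1 and JAC1.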

Additional observations from a re-analysis of the deposited data

Results flagged for a closer look

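Within groups of 4 libraries, a library was picked out where its gap to the nearest other library took up more of the group's range than Dixon's 95% critical value allows. Of 39 groups tested (10 genes and 3 ratios in 3 strains) 7 were picked out, where chance gives about 1 in 20 for each group, and 6 of the 7 came from replicate 1 of atg1. The groups share libraries, and the ratios are built from genes also tested singly. The 39 are therefore not independent, and their count is not a test against that rate. HSP82 had 347.5 CPM in that library, against 392.7 to 398.5 CPM in the other 3 atg1 libraries. HSC82 had 1277 CPM in it, against 1003 to 1045 CPM. SSA2 had 2087 CPM, against 1408 to 1475 CPM, and YDJ1 had 288.7 CPM, against 229.3 to 231 CPM. The log2 ratio of HSP82 to HSC82 was -1.877 there, against -1.412 to -1.332, and that of SSA1 to SSA2 was -0.7612, against -0.0914 to 0.02474. The remaining one was SSA2 in replicate 1 of WT, with 1392 CPM against 1333 to 1340 CPM in the other WT libraries. In replicate 1 of atg1 the inducible HSP82 was thus low beside a high constitutive HSC82, and SSA1 was low beside a high SSA2, while their sums, 1624 CPM for the Hsp90 pair and 3318 CPM for the Hsp70 pair, were above those of the other 3 atg1 libraries (1401 to 1438 CPM and 2841 to 2883 CPM).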

How the results depend on the processing

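The counts of the 10 genes called moved by no more than 1.5 times in any alternative: 8 to 10 called in atg41 against WT and in atg41 against atg1, and 0 in atg1 against WT. In the main fits 65.9% of all genes tested were called in atg41 against WT and 63.9% in atg41 against atg1. Under the alternatives these were 3771 to 4364 and 3679 to 4049 genes. Over all genes, the count called in atg1 against WT (231) was 378 at equal totals, 69 with only those 2 strains in the fit, 140 with the composition and length trend removed, 396 in DESeq2, and 53 to 457 with 1 library left out (among atg1 libraries, 53 when replicate 2 was dropped, 457 for replicate 3 and 109 for replicate 4, and among WT libraries, 77 for replicate 2, 53 for replicate 3 and 130 for replicate 4). The cause was not tested. Same-numbered libraries did not deviate together (correlations of deviations from -0.17 to 0.16), so the numbers were not taken as pairs. With the replicate block, 4000 genes (1817 higher, 2183 lower) were called in atg41 against WT, 209 in atg1 against WT and 3864 in atg41 against atg1, and 9, 0 and 10 of the 10 genes. Of 654 values of the 10 genes under alternatives, 645 stayed on the same side of the threshold and no called value turned its direction, 4 gained a call and 5 lost one, all SSA3 or HSP104. What depth limits was not tested: SSA3, the least abundant of the 10 at under 83 CPM, had an SE of 0.06 in atg41 against WT, against 0.06 to 0.13 for the other nine.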
